A study of Homo sapiens with 6 samples.

Results

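The genes described here encode the receptor (PTPR) and non-receptor (PTPN) protein tyrosine phosphatases. They were taken by symbol as every gene named PTPN plus a number or PTPR plus a letter and an optional digit, which gave 37 of the 22807 genes measured, 17 PTPN and 20 PTPR. RNA was sequenced from the HER2+ breast cancer cell line MDA-MB-453 in 3 libraries after transfection with scrambled siRNA and 3 after transfection with DUSP6 siRNA. No other treatment, genotype or time point separates the groups in the labels. A legend in the study gives several different siRNAs for each group but does not tie them to libraries. The 3 libraries of each group were therefore taken as replicates, and p-values measure only the spread between these libraries. Of the 37 genes, 22 had a mean normalized value of at least 1 over the 6 libraries and were tested, 14 PTPN and 8 PTPR, and 15 lay below that level.

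Protein tyrosine phosphatases remove phosphate from tyrosine and so oppose, or in some settings assist, the receptor tyrosine kinases, the JAK kinases and the Src family kinases. The receptor type spans the membrane and carries adhesion-like ectodomains that bind proteoglycans, other adhesion proteins or the same phosphatase on a neighbouring cell. The non-receptor type is brought to its substrates by SH2, FERM, PEST or lipid-binding regions. In HER2+ breast cancer cells PTPN9, PTPN12, PTPN13 and PTPN18 are known as phosphatases that act on HER2 or other ERBB receptors, whereas PTPN11 (SHP2) carries signals from these receptors to RAS and ERK. DUSP6, the gene that was depleted, encodes a dual-specificity phosphatase of the same superfamily, which removes phosphate from both tyrosine and threonine of ERK.

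The depletion and the libraries were checked first. DUSP6 (chr12:89347235-89352501) had normalized values of 209, 110 and 114 with scrambled siRNA and 39.4, 24.5 and 35.2 with DUSP6 siRNA. The fall was -2.05 on the log2 scale (standard error 0.25 and limma adjusted p = 3.09e-04), and the groups did not overlap. The libraries held 45546981 to 85729785 reads. A normalized value is the number of reads relative to the scaled library size, and 1 read corresponded to 0.0121 to 0.0202. The 5 epithelial markers were all expressed, with a summed value of 1788 to 2476 with scrambled siRNA and 1322 to 1407 with DUSP6 siRNA, and KRT8, KRT18 and KRT19 were lower while EPCAM and CDH1 were not called. The markers of HER2+ luminal cells ERBB2, ERBB3, FOXA1 and GATA3 were expressed in all libraries and were lower with DUSP6 siRNA. Of 9 leukocyte markers 5 were in the table and summed to 4.65 to 5.73 and 4.01 to 5.76, almost all of it CD68, with TYROBP at 0 in the scrambled libraries. The 5 endothelial markers summed to 0.402 to 0.479 and 0.269 to 0.324. Of 6 fibroblast markers 5 were in the table, and their sum of 80.9 to 106 and 162 to 192 was nearly all COL1A1, with LUM at 0 in the scrambled libraries. The part of these shifts in the results below was not tested. As in any bulk sample, fewer cells of a type and less RNA per cell cannot be told apart.

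Promoters of PTPRF and PTPN12, PTPN21 and PTPN9, and 1 promoter of PTPRD, the gene that was almost absent with scrambled siRNA, are printed here so that the changes described below can be read beside the sequence at a listed start site of each gene. They run from 250 bases before to 50 bases after the start site in RefSeq on GRCh38.p14 and are written 5′ to 3′ on the strand of the gene. The capitals mark matches to 7 short motifs searched on both strands, where overlapping matches run together. The motifs were GAAANNGAA (the core of the interferon-stimulated response element), TTCNNNGAA (STAT), TTTNGCGC (E2F), CCGGAAG (ETS), TGANTCA (AP-1), TGACGTCA (cyclic AMP response element) and GGGCGG (GC box). PTPRF and PTPN12 had the largest decreases among the tested phosphatases, PTPN21 and PTPN9 rose and kept their calls in the alternatives, and the PTPRD promoter shown is the 1 of its 3 listed promoters with an interferon-type match. The PTPRF, PTPN12 and PTPRD windows lie inside the annotated gene and not at its outer end. PTPRD spans chr9:8314246-10613002, and its promoter at the outer end, chr9:10612953-10613252, held 3 GC boxes and is not shown.
PTPRF, chr1:43530633-43530932, plus strand: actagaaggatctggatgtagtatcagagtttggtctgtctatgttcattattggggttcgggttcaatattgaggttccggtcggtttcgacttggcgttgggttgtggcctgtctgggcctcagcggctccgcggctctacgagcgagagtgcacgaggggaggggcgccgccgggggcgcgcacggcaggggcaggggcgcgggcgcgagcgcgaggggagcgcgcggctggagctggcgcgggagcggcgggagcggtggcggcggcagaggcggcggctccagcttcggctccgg
PTPN12, chr7:77537793-77538092, plus strand: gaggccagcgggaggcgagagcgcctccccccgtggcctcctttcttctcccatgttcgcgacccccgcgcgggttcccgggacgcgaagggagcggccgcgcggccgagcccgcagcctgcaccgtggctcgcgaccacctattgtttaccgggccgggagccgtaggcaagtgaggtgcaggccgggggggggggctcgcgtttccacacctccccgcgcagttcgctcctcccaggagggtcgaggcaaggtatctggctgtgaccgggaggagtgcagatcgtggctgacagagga
PTPN21, chr14:88554958-88555257, minus strand: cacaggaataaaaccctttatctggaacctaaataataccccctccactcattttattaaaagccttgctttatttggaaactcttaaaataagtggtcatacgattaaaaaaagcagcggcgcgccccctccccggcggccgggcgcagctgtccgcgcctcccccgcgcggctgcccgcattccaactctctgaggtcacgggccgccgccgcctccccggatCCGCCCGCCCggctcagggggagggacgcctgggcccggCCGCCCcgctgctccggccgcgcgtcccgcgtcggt
PTPN9, chr15:75579266-75579565, minus strand: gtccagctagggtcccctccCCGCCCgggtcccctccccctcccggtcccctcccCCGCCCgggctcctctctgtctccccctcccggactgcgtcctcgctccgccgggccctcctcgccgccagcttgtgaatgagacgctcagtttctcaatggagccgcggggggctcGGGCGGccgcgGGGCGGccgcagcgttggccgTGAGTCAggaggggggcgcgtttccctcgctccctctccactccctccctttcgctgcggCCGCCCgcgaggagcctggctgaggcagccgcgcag
PTPRD, chr9:8733897-8734196, minus strand: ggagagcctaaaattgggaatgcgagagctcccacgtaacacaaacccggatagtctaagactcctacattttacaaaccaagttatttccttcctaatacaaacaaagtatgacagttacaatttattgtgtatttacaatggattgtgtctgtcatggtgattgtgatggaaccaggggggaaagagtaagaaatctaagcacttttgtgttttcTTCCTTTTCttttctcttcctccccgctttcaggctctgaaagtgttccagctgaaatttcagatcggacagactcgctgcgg

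The PTPRF and PTPN12 windows held none of the 7 motifs. The PTPN21 window held 3 GC boxes, the first 2 overlapping, and the PTPN9 window held 5 GC boxes and an AP-1 match 46 bases before the start. The PTPRD window held the interferon-type core 33 bases before the start. RefSeq listed 51 promoters for 32 of the 37 genes. The interferon-type core was present in 8.11% of all 35116 promoters listed and in 2 of the 51, of PTPRD and PTPRE, both under the filter. The STAT motif was found in 7.66% of all promoters and in 0 of the 51. GC boxes were found in 45.0% of all promoters and in 26 of the 51. A match describes letters only, and a window without one says only that these letters are not in it.

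Among the 22 tested genes, 3 were higher and 4 were lower after DUSP6 siRNA at a limma adjusted p under 0.05. The higher genes were PTPN21, PTPN1 and PTPN9, and the lower genes were PTPRF, PTPN12, PTPN3 and PTPN4. These are 13.6% and 18.2% of the tested members, while 19.7% of all 12862 genes tested were called higher and 24.7% lower, so neither share exceeded that of all genes, and enrichment was not tested. By limma no tested phosphatase moved by more than 1 on the log2 scale (0 of 22, against 887 of all 12862 genes tested). Such changes were uncommon among all genes, so 0 of 22 does not set the members apart. For PTPN21, edgeR, which adds no 1 to the values, gave 1.015. The median absolute change was 0.21 against 0.29 over all genes, and the median change was -0.14 against -0.01. Without scrambled siRNA replicate 3 the counts were 2 higher and 7 lower, with PTPN14, PTPN20 and PTPRJ added to the lower genes, while 24.9% and 27.8% of all genes were called in that fit. Complete separation of the groups was seen for 3 genes above and 6 below, compared with 26.7% and 31.1% of all genes tested.

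**Figure D1:**
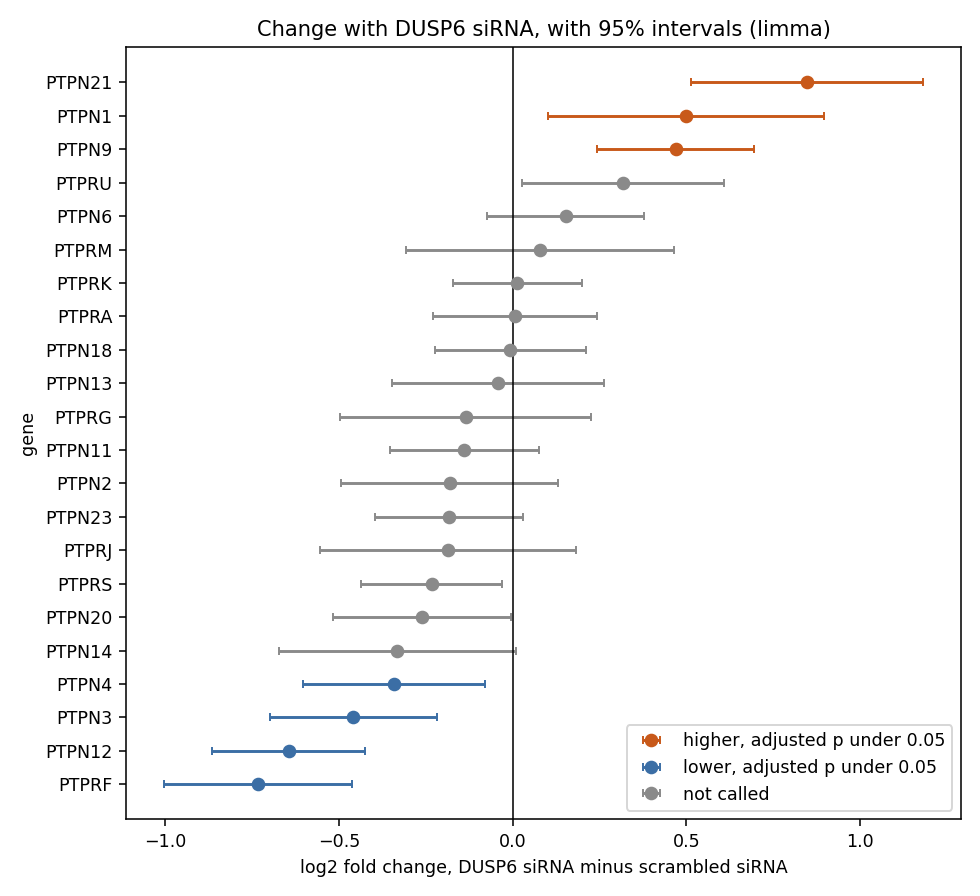
The log2 fold change (DUSP6 siRNA minus scrambled siRNA, horizontal axis) is plotted with its 95% interval from limma for each of the 22 tested genes, in orange where called higher, in blue where called lower and in grey where not called. PTPN21 lies at the upper end with 0.85 and PTPRF at the lower end with -0.73.

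Levels can be compared between genes only after division by transcript length, for which the canonical GENCODE transcript was used. On this per-kilobase scale PTPRF was the most abundant phosphatase transcript with scrambled siRNA, at 67.8 ± 10.5 (SD, n = 3), ahead of PTPN12 at 52.8 ± 5.70 and PTPN11 at 48.0 ± 4.05. The libraries of PTPRF overlapped those of PTPN12, and these overlapped those of PTPN11. PTPRK, PTPRA, PTPRS, PTPN23 and PTPN1 followed at means of 20.2 to 26.7 and each overlapped the next, while every PTPRK library lay below every PTPN11 library. At the other end of the tested genes stood PTPRM at 0.718, PTPN21 at 0.625 and PTPN20 at 0.396. With DUSP6 siRNA the order at the top became PTPN11 at 43.5 ± 2.08, PTPRF at 40.4 ± 2.06 and PTPN12 at 33.5 ± 1.09, and PTPN1 moved from the eighth place to the fourth with 28.1 ± 2.10, where it overlapped PTPRK. PTPN11 and PTPRF overlapped in these libraries, while every PTPN12 library lay below both.

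**Figure D2:**
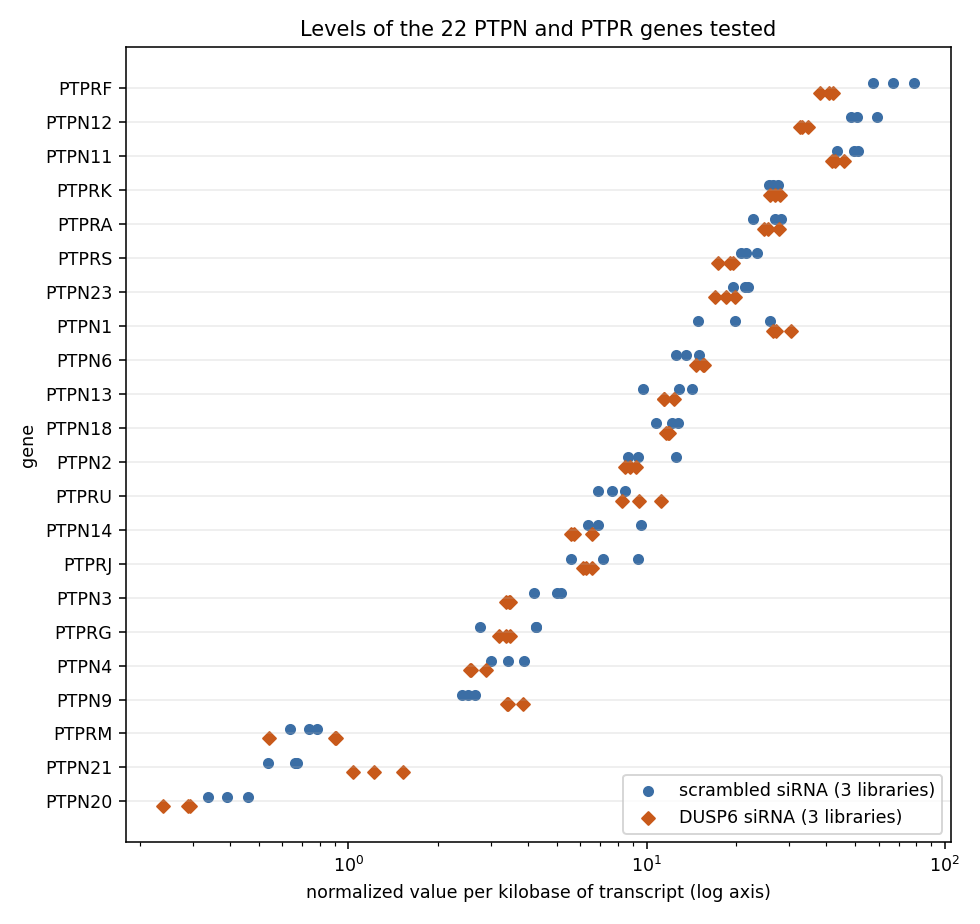
The normalized value per kilobase of transcript (log axis) is plotted for each of the 22 tested genes in the 3 scrambled siRNA libraries (blue circles) and the 3 DUSP6 siRNA libraries (orange diamonds), ordered by the scrambled mean. PTPRF falls from 67.8 to 40.4 and PTPN12 from 52.8 to 33.5, while PTPN11 stays between 41.9 and 51.0.

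The receptor genes together had summed per-kilobase levels of 153, 162 and 171 with scrambled siRNA and 132, 137 and 128 with DUSP6 siRNA. Without PTPRF the sums were 95.5, 94.8 and 92.2 against 90.0, 95.8 and 89.7, and the groups then overlapped. PTPRF made up 37.7%, 41.5% and 46.0% of the receptor sum with scrambled siRNA and 32.0%, 29.9% and 29.9% with DUSP6 siRNA. Of the non-receptor sum, PTPN12 made up 28.1%, 23.8% and 23.7% against 18%, 16.9% and 18.6%. PTPN1 took 7.06%, 12.2% and 9.70% against 14.3%, 15.8% and 14.6%. The share of PTPN11 was 20.4% to 25% with scrambled siRNA and 22.6% to 23.8% with DUSP6 siRNA, and it overlapped between the groups.

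The LAR-type receptors, which bind heparan and chondroitin sulfate proteoglycans and synaptic adhesion proteins and recruit liprins, held the member with the largest fall. PTPRF, also called LAR (chr1:43522051-43623666), had values of 445, 518 and 607 with scrambled siRNA and 326, 315 and 295 with DUSP6 siRNA. All DUSP6 siRNA libraries were below all scrambled libraries, and the scrambled libraries spread more widely. The mean fell from 523 ± 80.8 to 312 ± 15.9 (SD, n = 3 each), a log2 fold change of -0.73 (standard error 0.12 and limma adjusted p = 0.00138). Under quantile normalization it was -0.47 (limma adjusted p = 0.0113). Its relative PTPRS had values of 158, 153 and 172 against 143, 140 and 128. These groups did not overlap either, but the log2 fold change of -0.23 did not pass (limma adjusted p = 0.0617), and it passed only without scrambled siRNA replicate 2, among 15 alternatives (limma adjusted p = 0.0482).

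PTPRD, the third LAR-type receptor, lay under the filter and stood apart from every other phosphatase of low level. It had 3, 6 and 1 reads with scrambled siRNA and 39, 63 and 60 reads with DUSP6 siRNA, in normalized values 0.0446, 0.115 and 0.0121 against 0.789, 0.770 and 0.927. Each DUSP6 siRNA library was thus well above each scrambled library, and also above the level of 3 reads, which was 0.0362 to 0.0607. Adjusted for library size, the ratio of the summed reads was 16.7 (95% exact interval 8.87 to 35.6, counting error only). An edgeR quasi-likelihood test of the recovered reads of all genes without a filter, added after its values were seen, gave a log2 fold change of 3.99 (adjusted p = 1.46e-06). That test called 14.2% of all 22807 genes higher and 15.7% lower. limma without a filter gave 0.79 (adjusted p = 2e-04) on the log2(value + 1) scale, which shrinks the change of a gene at this level. With DUSP6 siRNA the per-kilobase level of PTPRD, 0.0798, was still about that of PTPRH at 0.0695 and far below that of PTPRS at 18.6.

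None of the MAM-domain receptors, which bind the same protein on the next cell and sit at cell contacts, was called. PTPRK had values of 160, 155 and 166 against 155, 162 and 168, a change of 0.01 on the log2 scale with a 95% interval of -0.17 to 0.20. PTPRU had 47.2, 38.3 and 42.8 against 52.4, 62.5 and 46.3, so 2 DUSP6 siRNA libraries lay above all scrambled libraries and 1 lay among them. Its log2 fold change was 0.32 (limma adjusted p = 0.0731), and it passed only under quantile normalization (limma adjusted p = 0.0297). PTPRM, at 4.37, 4.12 and 3.57 against 5.08, 3.03 and 5.04, overlapped fully. PTPRT, the fourth of the type, had 15 reads against 8 in the 3 libraries of each group together.

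The other tested receptors did not pass either. PTPRA, which activates Src kinases by removing their inhibitory phosphate, had 94.5, 90.1 and 76.4 against 82.7, 93.5 and 85.3, with an interval of -0.23 to 0.24 for the log2 fold change. PTPRJ, which acts on growth factor receptors and at cell junctions, had 55.9, 73.3 and 43.7 against 47.9, 51.3 and 49.2, all within the scrambled range. Its log2 fold change of -0.19 (limma adjusted p = 0.377) became -0.37 (limma adjusted p = 0.0327) without scrambled siRNA replicate 3, its lowest scrambled library, and -0.00032 (limma adjusted p = 0.999) without replicate 2, its highest. PTPRG, a receptor with a carbonic anhydrase-like domain, had 25.9, 39.9 and 39.7 against 31.5, 32.6 and 30.0, and all its DUSP6 siRNA libraries lay within the scrambled range. Of its exon sequence 8.25% is shared with PTPRG-AS1 on the opposite strand, and reads were assigned with Rsubread defaults, which do not use strand, so reads of the shared part cannot be told apart and its value is uncertain. PTPRG-AS1 itself fell from 1.96 ± 0.230 to 0.821 ± 0.102 (log2 fold change -0.70, limma adjusted p = 0.00127), but it passed the filter only through its scrambled libraries. Without scrambled siRNA replicate 1, its lowest scrambled library, PTPRG passed at a limma adjusted p of 0.0232 with a log2 fold change of -0.34, whereas without scrambled siRNA replicate 2 or 3 it was -0.03 or -0.04 (limma adjusted p = 0.888 or 0.866).

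Among the non-receptor genes, those with a PEST region bind adaptor proteins at focal adhesions and the actin skeleton. PTPN12 (PTP-PEST, chr7:77537295-77640069), which acts on p130Cas, paxillin and ERBB receptors, had values of 200.5, 172 and 164 with scrambled siRNA and 113, 110 and 118 with DUSP6 siRNA. The groups lay far apart relative to their spread, with means of 179 ± 19.3 and 114 ± 3.69 (SD, n = 3 each). The log2 fold change was -0.65 (standard error 0.10 and limma adjusted p = 9.48e-04), the smallest adjusted p among the tested phosphatases. PTPN18, its relative that acts on HER2, was not called, having 43.9, 46.2 and 38.8 against 43.0, 42.8 and 42.0. The log2 fold change of PTPN18 was -0.01, with an interval of -0.22 to 0.21. PTPN22, the third PEST phosphatase and mainly a lymphocyte gene, had 20 reads against 16.

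The 5 FERM-domain phosphatases, which sit under the membrane at cell contacts and the cytoskeleton, were all tested and split in direction. PTPN21 (chr14:88465778-88555007), which binds Src and the kinesin KIF1C, had values of 4.34, 4.27 and 3.47 with scrambled siRNA and 6.67, 9.79 and 7.86 with DUSP6 siRNA. The groups did not overlap, and the log2 fold change of 0.85 (standard error 0.15 and limma adjusted p = 0.00195) was the largest increase among the tested phosphatases. PTPN3 had 28.1, 34.7 and 33.4 against 23.1, 23.3 and 22.6. All DUSP6 siRNA libraries of PTPN3 lay below the lowest scrambled library, and the log2 fold change was -0.46 (standard error 0.11 and limma adjusted p = 0.00790). PTPN4, its closest relative, had 42.9, 38 and 33.3 against 28.4, 32.1 and 28.5, and the highest DUSP6 siRNA library came close to the lowest scrambled library. Its log2 fold change was -0.34 (standard error 0.12 and limma adjusted p = 0.0384), and the call was lost in 7 of 15 alternatives, among them without scrambled siRNA replicate 1 (limma adjusted p = 0.10) or 2 (0.0692) and without DUSP6 siRNA replicate 1 (0.128), 2 (0.0587) or 3 (0.135). PTPN14, a partner of the Hippo pathway protein YAP, had 91.6, 128 and 85.0 against 74.3, 87.4 and 76.5. One DUSP6 siRNA library of PTPN14 lay above the lowest scrambled library, and the log2 fold change of -0.33 did not pass (limma adjusted p = 0.103). PTPN13 had 83.1, 122 and 110 against 98.0, 106 and 98.0, and all its DUSP6 siRNA libraries lay within the scrambled range (log2 fold change -0.04, limma adjusted p = 0.819). PTPN21 shares 2.00% of its exon sequence with SPATA7 and PTPN13 shares 3.64% with MAPK10, both on the opposite strand, and the counting did not use strand.

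PTPN1 and PTPN2, close relatives that act on the insulin receptor and on JAK kinases, were not called alike. PTPN1 (PTP1B) had values of 59.3, 104 and 78.6 with scrambled siRNA and 105, 121 and 108 with DUSP6 siRNA. The highest scrambled library nearly reached the lowest DUSP6 siRNA library, and the range of the scrambled libraries exceeded the difference between the group means. The log2 fold change was 0.50 (standard error 0.18 and limma adjusted p = 0.0443), and the call was lost in 8 of 15 alternatives, with edgeR on the same genes giving an adjusted p of 0.0576. It was also lost without scrambled siRNA replicate 1 (limma adjusted p = 0.109) or 3 (0.0701) and without DUSP6 siRNA replicate 1 (0.0790), 2 (0.154) or 3 (0.0900), and without scrambled siRNA replicate 1 the log2 fold change was 0.30. PTPN2 (TC-PTP) had 43.6, 32.4 and 30.1 against 30.6, 29.4 and 32.0, with a log2 fold change of -0.18 and an interval of -0.49 to 0.13. PTPN2 has 2 named pseudogenes that could share its reads.

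PTPN6 and PTPN11, the SH2-domain phosphatases SHP1 and SHP2, did not pass. PTPN11 had 301, 264 and 310 against 255, 279 and 260, with overlapping groups and a log2 fold change of -0.14 (95% interval -0.35 to 0.07, limma adjusted p = 0.257), which became 0.11 under quantile normalization. Its reads may be shared with 5 named pseudogenes, so its value is uncertain. PTPN6, better known from blood cells, had 27.1, 29.2 and 32.5 against 33.5, 33.6 and 31.8, and 1 DUSP6 siRNA library lay below the highest scrambled library. Its log2 fold change was 0.15 (limma adjusted p = 0.244).

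The last 3 tested genes stand alone in their subfamilies. PTPN9 (MEG2, chr15:75463251-75579315), a lipid-binding phosphatase of secretory vesicles that also acts on EGFR and HER2, had values of 18.8, 19.8 and 20.9 with scrambled siRNA and 26.8, 30.1 and 26.7 with DUSP6 siRNA. These groups were well separated, with a log2 fold change of 0.47 (standard error 0.10 and limma adjusted p = 0.00540). PTPN23, which sorts receptors at endosomes, had 114, 112 and 102 against 103, 88.8 and 96.4 and a log2 change of -0.18 (limma adjusted p = 0.142). PTPN20 had 1.40, 1.19 and 1.02 against 0.728, 0.880 and 0.896, and its groups did not overlap. It passed the filter on low values through its scrambled libraries, and its log2 fold change of -0.26 did not pass the test (limma adjusted p = 0.0888). It also has a near-identical copy, PTPN20CP, so its value is uncertain.

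**Figure D3:**
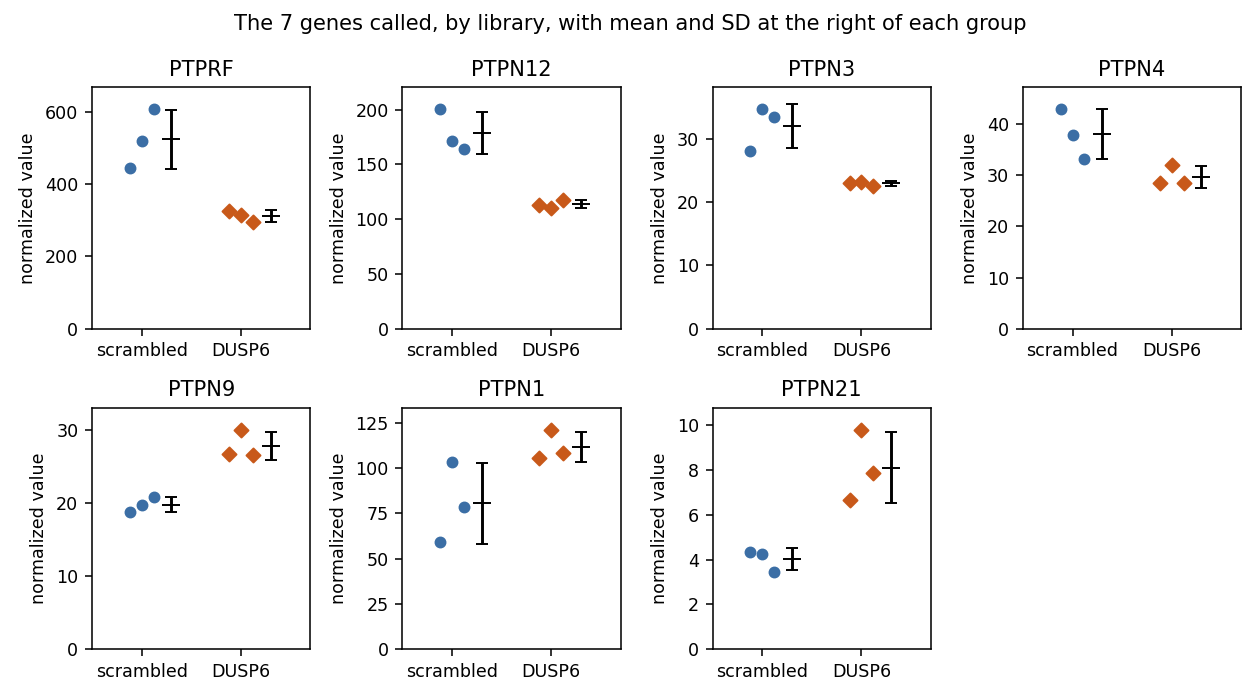
The normalized value (vertical axis from 0) of each of the 7 called genes is plotted for the 3 scrambled siRNA and the 3 DUSP6 siRNA libraries, with the mean and SD to the right of each group. PTPRF, PTPN12, PTPN3 and PTPN9 leave a clear gap between the groups, whereas for PTPN1 the highest scrambled library, at 104, lies just under the lowest DUSP6 siRNA library, at 105.

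Relatives were also set against each other within each library, as the log2 ratio of their values, in 6 pairs chosen after the values were seen. The ratio of PTPRF to PTPRS was 1.5, 1.76 and 1.82 with scrambled siRNA and 1.19, 1.18 and 1.21 with DUSP6 siRNA. That of PTPN12 to PTPN18 was 2.19, 1.90 and 2.08 against 1.39, 1.36 and 1.48. The ratio of PTPN1 to PTPN2 was 0.44, 1.68 and 1.39 against 1.78, 2.04 and 1.76. In these and in 2 more pairs the groups did not overlap, with differences of -0.50 for PTPRF over PTPRS, -0.64 for PTPN12 over PTPN18, 0.69 for PTPN1 over PTPN2, 1.33 for PTPN21 over PTPN14 and 0.30 for PTPN6 over PTPN11. PTPN3 over PTPN4 overlapped, with a difference of -0.12. For single genes, 26.7% of all genes tested separated completely upward and 31.1% downward. The share over other gene pairs was not counted, so these separations do not set the relatives apart from other genes. The two-sided exact permutation p was 0.1 for each of the 5 pairs, the smallest that 3 against 3 libraries allow, and 0.5 for PTPN3 over PTPN4 (0.12 and 0.5 after Benjamini-Hochberg adjustment over the 6 pairs).

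Of the 15 genes under the filter, PTPRD aside, none had more reads than the 47 and 53 of PTPRH in the 3 libraries of each group together. The phosphatases that bind ERK and other MAP kinases through a kinase interaction motif, and so share substrates with DUSP6, were all among them. PTPN5 had 3 reads with scrambled siRNA and 6 with DUSP6 siRNA, summed over 3 libraries, and PTPRR had 1 against 3. PTPN7 had 2, 1 and 3 reads against 2, 11 and 3, so its higher sum of 16 against 6 rests on DUSP6 siRNA replicate 2, and the ratio was 2.75 (95% exact interval 1.02 to 8.59). The intervals of the ratio were 0.441 to 12.8 for PTPN5 and 0.249 to 163 for PTPRR, so a change was not detectable at this depth.

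Receptors that mark other cell types were equally scarce. PTPRC (CD45), carried by leukocytes, had 4 reads against 10, and PTPRB, of endothelial cells, had 9 against 19. PTPRH, which occurs in epithelia of the gut, was the most abundant with 47 against 53 reads, a ratio of 1.17 (95% exact interval 0.772 to 1.76). PTPRE, the relative of PTPRA, had 6 against 2 reads. PTPRN and PTPRN2, proteins of secretory granules in endocrine cells and neurons, had 0 against 1 and 4 against 12. PTPRZ1, PTPRO and PTPRQ, found mainly in glia, podocytes and the inner ear, had 2 against 2, 1 against 1 and 0 against 1. Apart from PTPRD and PTPN7, the 95% exact interval of the ratio included 1 for every one of these genes for which a ratio was defined.

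**Figure D4:**
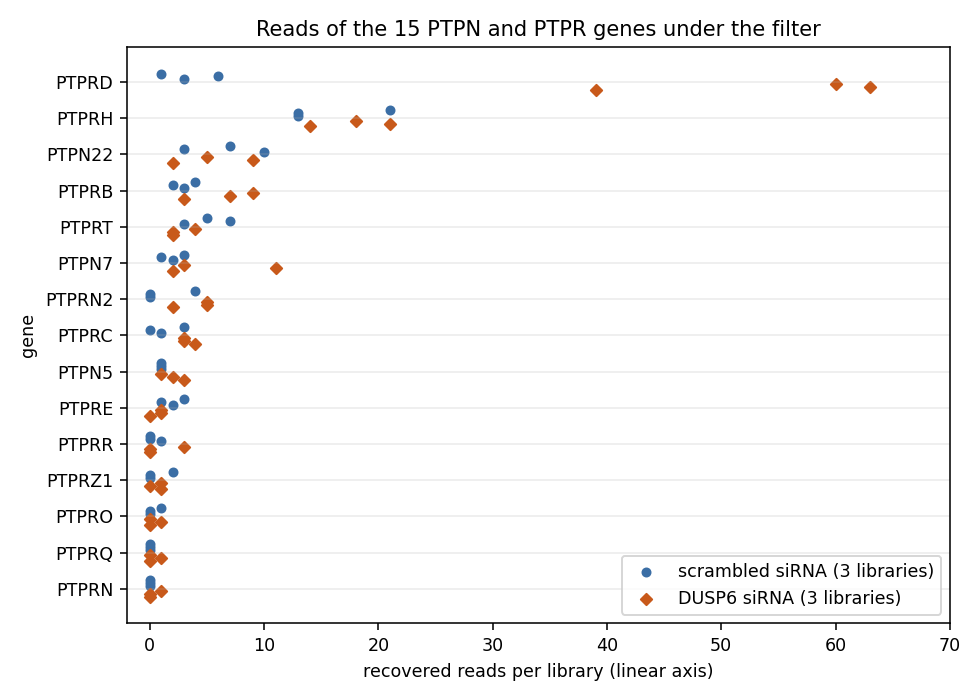
The recovered reads per library (linear axis) are plotted for the 15 genes under the filter, in blue circles for scrambled siRNA and orange diamonds for DUSP6 siRNA. PTPRD is the one gene whose groups lie far apart, at 1 to 6 reads against 39 to 63.

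The partners and substrates of these phosphatases were counted from the same fit in 8 lists that hold no phosphatase of either type named above. Of 137 partner genes 86 were tested, of which 20 were higher and 28 were lower, with a median log2 fold change of -0.14. These shares, 23.3% and 32.6%, can be read against the 19.7% and 24.7% of all genes given above, and enrichment was not tested. Without DUSP6 siRNA replicate 2 the count of higher partner genes was 13.

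Substrates at cell contacts and focal adhesions, which PTPN12, PTPRF and the MAM-domain receptors act on, held 1 higher and 6 lower genes of 13 tested (median -0.31). PSTPIP2, listed here as a relative of the PTPN12 partner PSTPIP1, fell from 18.9 ± 1.82 to 3.53 ± 0.623 (log2 fold change -2.14, limma adjusted p = 8.86e-06). The kinase gene PTK2B fell from 19.7 ± 0.944 to 10.3 ± 0.634 (-0.88, limma adjusted p = 2.39e-04). PXN, which encodes paxillin, fell from 146 ± 3.67 to 92.0 ± 3.83 (-0.66, limma adjusted p = 3.19e-04). Of the 4 tested liprin scaffold genes, whose family includes the partners of the LAR-type receptors, 2 were lower and none was higher (median -0.33). These were PPFIBP2, at 99.4 ± 15.2 against 29.2 ± 2.48 (-1.73, limma adjusted p = 2.16e-05), and PPFIA3, at 71.1 ± 7.07 against 48.6 ± 2.23 (-0.53, limma adjusted p = 0.00287).

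Ligands of the receptor phosphatases moved in both directions, 3 higher and 2 lower of 15 tested (median 0.19). AGRN, a heparan sulfate proteoglycan of the kind that binds LAR-type receptors, rose from 158 ± 25 to 357 ± 35.0 (log2 fold change 1.18, limma adjusted p = 1.71e-04). GPC4, a glypican, rose from 3.59 ± 0.319 to 8.40 ± 0.532 (1.04, limma adjusted p = 1.53e-04). THBS1, which encodes the PTPRJ ligand thrombospondin-1, fell from 757 ± 128 to 249.1 ± 54.9 (-1.61, limma adjusted p = 1.95e-04).

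All 8 tested JAK and STAT genes, whose products PTPN1, PTPN2, PTPN6 and PTPN11 dephosphorylate, were called, 6 higher and 2 lower (median 0.55). STAT2, a mediator of interferon signals, rose from 56.1 ± 3.40 to 162 ± 21.0 (log2 fold change 1.51, limma adjusted p = 2.18e-05). JAK2 rose from 11.7 ± 1.90 to 27.1 ± 1.06 (1.15, limma adjusted p = 1.68e-04). The rises of STAT2 and JAK2 are values that moved with the phosphatase changes, and their part in them was not tested.

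Among the 13 tested receptor tyrosine kinases 5 were higher and 3 lower (median -0.16). The higher genes include FGFR3, with means of 0.810 with scrambled siRNA and 1.32 with DUSP6 siRNA, which passed the filter only through the DUSP6 siRNA libraries. ERBB2, which encodes HER2, fell from 984 ± 94.3 to 495 ± 33.6 (log2 fold change -0.99, limma adjusted p = 1.59e-04). ERBB3, which encodes HER3, fell from 307 ± 34.1 to 192 ± 5.99 (-0.66, limma adjusted p = 8.77e-04). FGFR1 rose from 41.6 ± 3.62 to 80.5 ± 4.26 (0.94, limma adjusted p = 1.31e-04).

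Of the 13 tested adaptor genes that dock SHP2 or its receptors, 3 were higher and 4 lower (median -0.08). GAB1, the main docking protein of SHP2, fell from 72.8 ± 6.70 to 37.5 ± 1.32 (log2 fold change -0.93, limma adjusted p = 1.30e-04), while its relative GAB2 rose from 12 ± 2.11 to 20.5 ± 1.71 (0.73, limma adjusted p = 0.00264). FRS3 rose from 3.55 ± 0.296 to 5.76 ± 0.239 (0.57, limma adjusted p = 0.00280).

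Only 4 of the 12 listed Src family kinases and their controls were tested, with 1 higher and 2 lower (median -0.36). FYN went from 0.177 ± 0.00430 to 2.59 ± 0.512 (log2 fold change 1.6, limma adjusted p = 3.45e-05) and passed the filter only through the DUSP6 siRNA libraries. PAG1, the membrane adaptor of the Src-inhibiting kinase CSK, fell from 16.5 ± 5.68 to 6.86 ± 0.608 (-1.11, limma adjusted p = 0.00238). YES1 fell from 45.7 ± 8.19 to 31.0 ± 2.67 (-0.53, limma adjusted p = 0.0113).

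Other phosphatases of the tyrosine phosphatase superfamily, of which 16 were tested, held 1 higher and 7 lower genes (median -0.20). The lower genes include UBASH3B, with means of 1.97 with scrambled siRNA and 0.891 with DUSP6 siRNA, which passed the filter only through the scrambled libraries. CDC25B, which activates cyclin-dependent kinases, fell from 121 ± 2.65 to 64.2 ± 5.30 (log2 fold change -0.91, limma adjusted p = 1.05e-04). CDC25C, of the same family, fell from 14.6 ± 1.68 to 8.21 ± 0.908 (-0.76, limma adjusted p = 0.00156). PTP4A2, a membrane-anchored phosphatase, fell from 402 ± 30.4 to 220.1 ± 6.21 (-0.86, limma adjusted p = 1.30e-04).

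**Figure D5:**
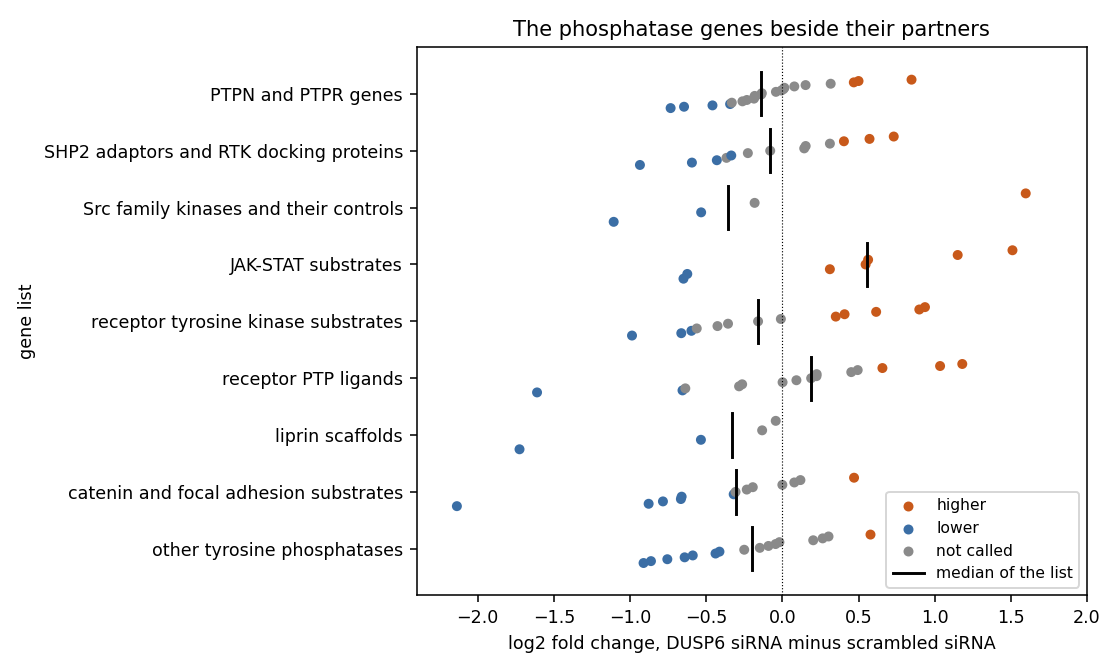
The log2 fold change of the tested genes is plotted for the phosphatases and for the 8 partner lists, less 1 gene not reported here, in orange where called higher, in blue where called lower and in grey where not called, with the median of each whole list as a black bar. The phosphatases span -0.73 to 0.85, while the JAK and STAT genes shown reach 1.51. In the list of cell contact and focal adhesion substrates the lowest genes are PSTPIP2 at -2.14, listed as a relative of a PTPN12 partner, and PTK2B at -0.88.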

How the data were processed

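The 6 RNA sequencing libraries came from MDA-MB-453 cells. The authors aligned the reads to hg38, assigned them to RefSeq gene models with Rsubread defaults and deposited a table of normalized signal, linear in scale, for each gene in each library, and the submitters' processing notes name bcl2fastq and edgeR. The normalization step is not described in the sources used here. Divided by 1 step per library, 100% of the deposited values came out as whole reads (within 0.001), and the steps equal edgeR's TMM scaling, so depth was already adjusted for. This scaling also holds a factor per library that differed between the groups. It was 0.881, 0.923 and 0.968 with scrambled siRNA and 1.086, 1.081 and 1.082 with DUSP6 siRNA. No fit on depth alone was tried, so the size and sign of small fold changes depend on the scaling. Counting error is minor for genes well above a mean of 1, but not close to it, where PTPN20 had 36 to 94 reads per library. For genes under the filter, exact intervals and the level of 3 reads cover counting error only. A gene ID without a symbol was given for 349 genes, which stayed in the fit.

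From these values, log2(value + 1) was fitted by limma 3.58.1 (R 4.3.3, lmFit, eBayes with a trend) for 12862 genes whose mean reached 1, with Benjamini-Hochberg adjustment over all of them and calls at an adjusted p under 0.05. Adding 1 makes the fold changes of low genes smaller. edgeR 4.0.16 on the recovered reads of the same genes called 2459 higher and 3245 lower, against 2540 and 3179 by limma. Both tools were tested on simulated data. Libraries of 1 group differed by more than counting noise, so none was a copy of another.

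Every gene that matched the symbol rule is named, DUSP6 as the check of the knockdown, and in each partner list up to 3 called genes with the smallest adjusted p. PTPRG-AS1, FGFR3, UBASH3B and the markers and overlapping genes were named for the limits they set. The members and lists were chosen with earlier results of these data known. Positions and promoters came from RefSeq on GRCh38.p14 and lengths and exon overlaps from GENCODE. Tried as alternatives were no filter, a mean of at least 10, a pseudocount of 0.1, median-of-ratios and quantile scaling, eBayes without a trend, a replicate block, edgeR with and without the filter, and each library left out in turn. The test of PTPRD by edgeR without a filter was added after the data were seen. The other cell lines and assays of the study were not analysed here, and the results of 2 genes of the lists are not reported here.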

Additional observations from a re-analysis of the deposited data

How the results depend on the processing

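Across 15 alternatives, PTPRF, PTPN12, PTPN3 and PTPN9 kept their calls, as did PTPN21 in the 14 that tested it, whereas PTPN4 and PTPN1 lost theirs in 7 and 8. Over all alternatives to the values of single genes, 304 kept direction and call, 15 lost the call, 8 gained it and 14 changed sign, each of a gene without a call on either side. Under quantile normalization the log2 fold change became 0.11 for PTPN11, -0.050 for PTPRM, 0.066 for PTPN18 and 0.074 for PTPN13, and PTPRF moved from -0.73 to -0.47. With each library left out in turn it was -0.022 to 0.27 for PTPRM, -0.077 to 0.046 for PTPN18, -0.083 to 0.068 for PTPRA, -0.20 to 0.073 for PTPN13 and -0.014 to 0.041 for PTPRK. Leaving out each library in turn gave 2 to 3 higher and 3 to 7 lower phosphatases, 1535 to 3213 higher and 2309 to 3578 lower genes of all tested, and 13 to 20 higher and 21 to 33 lower partner genes. The highest count of lower phosphatases came without scrambled siRNA replicate 3. With a mean value of at least 10, fewer genes were tested and 1639 of all genes and 13 partner genes were higher. edgeR without a filter called 4 of 37 phosphatases higher, with PTPRD added, and 4 lower, against 14.2% and 15.7% of all genes. Quantile scaling moved the median of all genes by 0.0382 on the log2 scale and the median of ratios by -0.00446. Deviations of libraries with the same replicate number correlated at 0.00500, 0.0868 and -0.0764, and those with different numbers at -0.0907 to 0.132. No pairing by number was thus seen, but 3 libraries per group cannot show that there was none. With a replicate block, 3 phosphatases were higher and 5 lower, with PTPN14 added, 2495 and 3096 of all genes, and 20 and 33 partner genes. Depth limits the 15 genes under the filter.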
